A study of Mus musculus with 10 samples.

Results

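The 10 genes described here make and load MHC class I molecules in the mouse colon crypt: the heavy chains H2-K1 and H2-D1, their light chain B2m, the peptide transporter subunits Tap1 and Tap2, the loading protein Tapbp, the immunoproteasome subunits Psmb8, Psmb9 and Psmb10, and the class I transactivator Nlrc5. They were chosen by name, and all 10 were found among the 23364 genes of both deposited tables. Each had reads in every group, so none was lost to a filter on low values.

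As background, MHC class I molecules show peptides from inside the cell to cytotoxic T cells. The proteasome cuts proteins into these peptides, and under interferon gamma its constitutive catalytic subunits are exchanged for Psmb8, Psmb9 and Psmb10, which changes the peptides that are made. TAP, a pair of Tap1 and Tap2, pumps the peptides into the endoplasmic reticulum, where tapasin (Tapbp) holds empty class I molecules next to the transporter. Nlrc5 has no DNA-binding domain of its own and acts at class I promoters through factors bound to the X and Y boxes. In the colon, epithelial cells carry class I constitutively, and inflammation is known to raise it.

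RNA was measured in 10 libraries of epithelial crypts shaken from the distal colon of mice in EDTA, sequenced after poly(A) selection. The control group held 3 libraries of mice with no treatment. The DSS group held 4 libraries of mice treated with dextran sulfate sodium, which damages the mucosa and causes colitis. AOM+DSS comprised 3 libraries of mice given azoxymethane, a DNA-alkylating carcinogen, and then DSS, a condition that the submitters describe as cancer. Strain, sex, age, dose and duration count as not given in the sources used here. Nothing in the labels ties each library to an animal of its own, so a p-value here measures variation among these samples alone, and that variation may be technical. A crypt preparation is a mixture of cells, and in bulk RNA fewer cells of a type and less RNA per cell cannot be told apart.

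The deposited tables give group means of normalized reads and the authors' test of each treated group against the control. Whole reads of each library were worked back from the printed means, with 14813231 to 16478381 recovered reads in control, 11165985 to 19773559 in DSS and 16124627 to 23509031 in AOM+DSS. Libraries are lettered a to c or a to d by depth, deepest first; which letter is which labelled replicate is not known. Control b carried more reads of immune and stromal markers than the other controls, and DSS a more lymphocyte markers than the other DSS libraries, with values given below. Epithelial markers were high in all groups: the means of 11 markers summed to 248084 normalized reads in control, 278969 in DSS and 247507 in AOM+DSS, and none of the 11 passed the authors' test in either comparison.

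The promoters are shown because class I genes are known to share regulatory boxes, and their letters can be set beside the members' values. RefSeq promoter windows of 300 bases (GRCm38.p6) were found for 8 of the 10 genes, not for Tap2 and Nlrc5. The 250 bases before the start are given for 5 of them, 5′ to 3′ on the strand of the gene, with matches to 5 motifs in capitals. The motifs, searched on both strands, were TTCNNNGAA (the gamma interferon activation site, GAS), GAAA, 2 bases of any kind and GAAA (the core of the interferon-stimulated response element, ISRE), GGGA, 4 bases of any kind and CC (NF-kB), TGACG (the core of the X2 box) and CCAAT (the Y box, read as ATTGG on the other strand). The H2-K1 stretch, from 1 of its 2 listed windows, is chr17:34000334-34000583 on the minus strand, that of H2-D1 is chr17:35262844-35263093 on the plus strand, that of B2m is chr2:122147437-122147686 on the plus strand, that of Tap1 is chr17:34187306-34187555 on the plus strand and that of Psmb8 is chr17:34197945-34198194 on the plus strand.
H2-K1: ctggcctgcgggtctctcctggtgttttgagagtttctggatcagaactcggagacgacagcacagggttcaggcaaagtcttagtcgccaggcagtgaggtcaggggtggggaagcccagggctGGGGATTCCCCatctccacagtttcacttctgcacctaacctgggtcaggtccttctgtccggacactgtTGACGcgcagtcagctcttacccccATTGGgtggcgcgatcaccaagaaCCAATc
H2-D1: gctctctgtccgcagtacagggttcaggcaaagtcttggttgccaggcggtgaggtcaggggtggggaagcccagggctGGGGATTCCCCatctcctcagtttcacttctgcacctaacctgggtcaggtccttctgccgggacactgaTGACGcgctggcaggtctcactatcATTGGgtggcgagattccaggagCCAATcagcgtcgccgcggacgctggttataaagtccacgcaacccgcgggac
B2m: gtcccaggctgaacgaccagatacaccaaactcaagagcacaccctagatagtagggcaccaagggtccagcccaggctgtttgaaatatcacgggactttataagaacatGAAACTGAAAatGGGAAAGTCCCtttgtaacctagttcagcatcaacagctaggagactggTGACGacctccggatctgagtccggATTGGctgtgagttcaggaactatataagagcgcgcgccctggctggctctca
Tap1: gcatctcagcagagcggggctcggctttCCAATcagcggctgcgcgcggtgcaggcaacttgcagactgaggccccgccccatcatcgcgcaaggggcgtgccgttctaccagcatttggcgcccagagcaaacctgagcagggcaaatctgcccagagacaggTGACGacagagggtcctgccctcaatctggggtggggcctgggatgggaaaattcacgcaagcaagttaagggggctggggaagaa
Psmb8: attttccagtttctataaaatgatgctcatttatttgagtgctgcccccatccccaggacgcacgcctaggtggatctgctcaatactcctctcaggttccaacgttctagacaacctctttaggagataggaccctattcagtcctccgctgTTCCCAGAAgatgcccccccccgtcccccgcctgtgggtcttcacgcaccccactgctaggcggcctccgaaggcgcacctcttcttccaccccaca

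The promoters of H2-K1, H2-D1 and B2m held the same order of motifs. In each, 2 overlapping NF-kB matches on opposite strands came before an X2 core, and exactly 20 bases separated this X2 core from an ATTGG. This pair at this distance, searched for after the matches were seen, was in 31 of 32851 windows (0.0944%), which belong to 27 genes; these include the heavy chain H2-M3. H2-K1 and H2-D1 matched at 99 of 118 bases around the X2 core, aligned without gaps. B2m alone of the 8 members held a match to the ISRE core exactly as searched, at positions -139 to -130 (the start base is 0). It also held a further X2 core after the start, at positions 44 to 48. H2-K1 and H2-D1 both hold the letters tttcacttct after the NF-kB matches, which come close to the ISRE core on the other strand. The search counted exact matches only, so B2m is not shown to differ from the heavy chains in having an ISRE.

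The other promoters differed from this pattern. Tap1 and Psmb9 stand head to head, and their windows share 275 bases, so their 1 X2 core and 1 Y box are the same letters. Psmb8 held a GAS at positions -97 to -89 and no other motif. Tapbp held 2 Y boxes, and the Psmb10 window held none of the 5 motifs. Single motifs were common: over all windows 8.30% held a GAS, 3.44% an ISRE core, 20.7% an NF-kB match, 20.8% an X2 core and 37.4% a Y box. A match is a description of letters and not a measured binding site, and no match says only that these letters are not in this window.

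Most of the genes were higher in both treated groups. In DSS, 8 of 10 rose and none fell in the authors' deposited table (DESeq, adjusted p under 0.05), where 2.61% of 18099 tested genes were called higher 1.78% lower and 4.39% in either direction. In AOM+DSS, 9 of 10 rose and none fell in the authors' deposited table, against 5.54% of 18334 genes called higher, 3.35% lower and 8.89% in either direction. The median log2 fold change of the 10 genes was 1.20 in DSS and 1.31 in AOM+DSS, against 0.02 and 0.02 over all genes with a fold in these tables. Both comparisons use the same 3 control libraries.

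**Figure D1:**
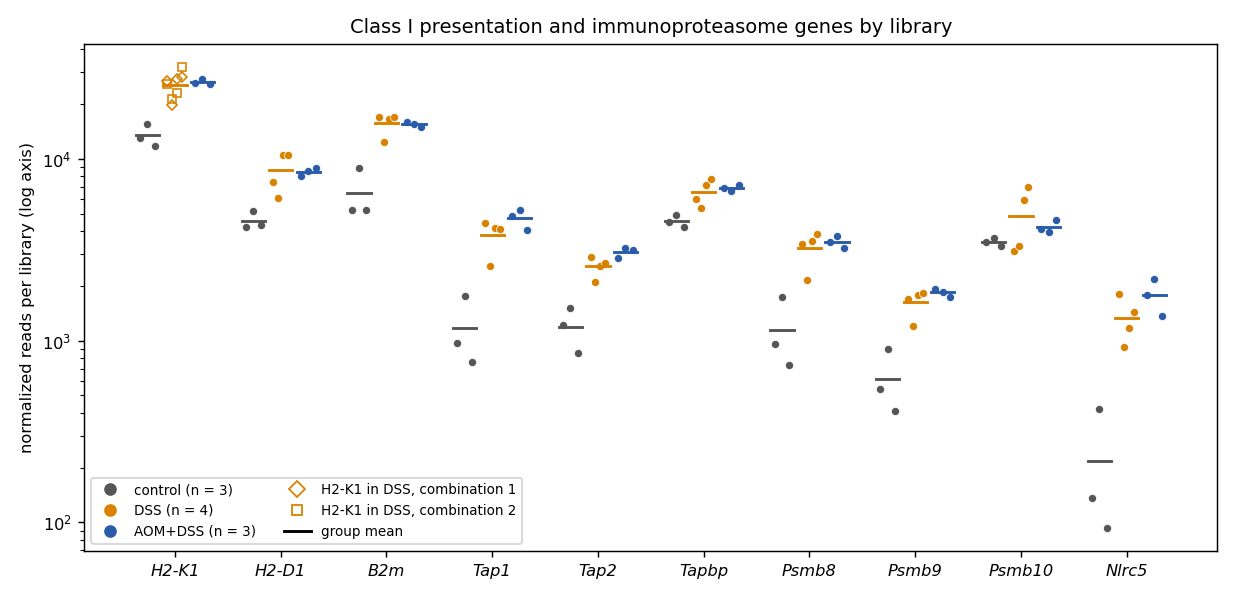
Normalized reads of the 10 genes in each library (points, log axis), with the mean of each group as a bar; control is grey, DSS orange and AOM+DSS blue. The DSS reads of H2-K1 allow 2 combinations, drawn as open symbols. The AOM+DSS points lie above every control point for all 10 genes, and the Psmb10 points of DSS split into a low and a high pair.

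Nlrc5, the transactivator, had the largest fold of the 10 genes. Its normalized reads were 136, 419.7 and 93.2 in control libraries a to c, with a mean of 216 ± 177 (SD, n = 3). In DSS libraries a to d they were 1814, 917, 1173 and 1432 (1334 ± 383, n = 4), and in AOM+DSS libraries a to c 1779, 2175 and 1372 (1775 ± 401, n = 3). Every treated library lay above every control library, and control b stood well above the other controls. The authors' deposited table gives a 6.16-fold increase in DSS (log2 2.62, adjusted p = 1.06e-09). In AOM+DSS the authors' deposited table gives a log2 fold change of 3.04 (adjusted p = 2.78e-12). Nlrc5 was also the most variable of the 10 genes in control, where the highest library held 4.5 times the reads of the lowest.

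B2m, the light chain that every classical class I molecule needs, rose about as much in both treatments. Control libraries a to c held 5258, 8894 and 5199.6 normalized reads (6451 ± 2116, n = 3). DSS libraries a to d held 16931, 12413, 16528 and 16992 (15716 ± 2212, n = 4), and AOM+DSS libraries 15858, 15514 and 15043 (15472 ± 409, n = 3). The lowest treated library, DSS b, was above the highest control, control b. The log2 fold change was 1.28 in DSS (adjusted p = 9.05e-08) and 1.26 in AOM+DSS (adjusted p = 1.76e-07) in the authors' deposited table. B2m lies inside the span of Patl2 in RefSeq, and as the libraries do not mark the strand, reads from shared stretches cannot be told apart.

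The heavy chains H2-K1 and H2-D1, which bind the peptide, had smaller folds than B2m. Their ratios to B2m, given below where resolved, did not separate the groups. H2-K1 stood at 13016, 15628 and 11755 normalized reads in control (13466 ± 1976, n = 3) and at 26270.1, 27446 and 25923 in AOM+DSS (26546 ± 798, n = 3). Its DSS mean was 25596, and 2 combinations of whole reads give that mean: 26833, 19829, 27532 and 28192 for libraries a to d, or 25818, 21409, 23146 and 32012. In either combination every DSS library was above every control library. The log2 fold change of H2-K1 was 0.93 in DSS (adjusted p = 0.000496) and 0.98 in AOM+DSS (adjusted p = 0.000110) in the authors' deposited table.

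H2-D1 held 4195, 5163 and 4344 normalized reads in control (4567 ± 521, n = 3), 7446, 6112, 10464 and 10546 in DSS (8642 ± 2219, n = 4) and 8064, 8587 and 8876 in AOM+DSS (8509 ± 412, n = 3). DSS b was the lowest treated library and still above every control. The log2 fold change was 0.92 in DSS (adjusted p = 0.0127) and 0.90 in AOM+DSS (adjusted p = 0.00555) in the authors' deposited table. Class I heavy chains resemble each other: 8.79% of the 50-base words of the H2-K1 transcript and 14.3% of those of H2-D1 also occur in transcripts of other genes. The genes that share most with H2-D1 are H2-Q1, H2-Q7, H2-Q6 and H2-K1, so these values are uncertain where the counting could move reads between copies.

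Both transporter subunits rose, with the larger fold in Tap1; the difference between the 2 genes was not tested. Tap1 stood at 974, 1769.8 and 762 normalized reads in control (1168 ± 531, n = 3), at 4441, 2563, 4153 and 4095 in DSS (3813 ± 847, n = 4) and at 4849, 5257 and 4065 in AOM+DSS (4724 ± 606, n = 3). Tap2 stood at 1212, 1510.0 and 855 in control (1192 ± 328, n = 3), at 2887, 2109, 2584 and 2685 in DSS (2566 ± 329.6, n = 4) and at 2842, 3242 and 3142 in AOM+DSS (3075 ± 208, n = 3). Neither gene had a treated library within the range of the controls. The authors' deposited table gives log2 fold changes of Tap1 of 1.71 in DSS (adjusted p = 9.06e-09) and 2.02 in AOM+DSS (adjusted p = 5.50e-12). For Tap2 the authors' deposited table gives 1.11 (adjusted p = 2.58e-05) and 1.37 (adjusted p = 9.85e-08).

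Tapbp, the tapasin that tethers class I to the transporter, had a smaller difference. It held 4476, 4889 and 4228 normalized reads in control (4531 ± 334, n = 3), 6012, 5346, 7214 and 7739.7 in DSS (6578 ± 1094, n = 4) and 6925, 6683 and 7149.9 in AOM+DSS (6919 ± 234, n = 3). Every treated library was above every control. Its log2 fold change was 0.54 in DSS, which did not pass (adjusted p = 0.200), and 0.61 in AOM+DSS, which did (adjusted p = 0.0449), in the authors' deposited table. In DSS, limma gave 0.52 (adjusted p = 0.0832). With each library's trend with GC content and transcript length removed, limma gave 0.47 (adjusted p = 0.0290).

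The immunoproteasome subunits did not move alike. Psmb8 stood at 961, 1741 and 733 normalized reads in control (1145 ± 529, n = 3), at 3388, 2154, 3515 and 3865 in DSS (3230.4 ± 746, n = 4) and at 3472, 3773 and 3213 in AOM+DSS (3486 ± 280.3, n = 3). Psmb9 stood at 539, 902 and 412 in control (617 ± 254, n = 3), at 1694, 1199.7, 1772 and 1821 in DSS (1622 ± 286, n = 4) and at 1933, 1855 and 1747 in AOM+DSS (1845 ± 93.5, n = 3). For both genes the lowest treated library, DSS b, exceeded the highest control, control b. In the authors' deposited table the log2 fold change of Psmb8 was 1.5 in DSS (adjusted p = 3.06e-06) and 1.61 in AOM+DSS (adjusted p = 1.73e-07). For Psmb9 the authors' deposited table gives 1.39 (adjusted p = 2.13e-07) and 1.58 (adjusted p = 1.27e-09). Psmb9, Tap1, Psmb8 and Tap2 lie next to each other on chromosome 17, and the GENCODE spans of Psmb9 and Tap1 overlap at their starts.

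Psmb10, the remaining induced subunit, was the one gene of the 10 that passed in neither comparison. Its control libraries held 3476, 3676 and 3318 normalized reads (3490.0 ± 179, n = 3). The DSS libraries held 3124, 3322, 5916 and 7014 (4844 ± 1926, n = 4), and the AOM+DSS libraries 4131, 3977 and 4596 (4235 ± 322, n = 3). DSS a lay below the control range, b within it and c and d far above it, while all 3 AOM+DSS libraries lay above the controls. Psmb10 was not alone in having DSS a and b below c and d. H2-D1, Tapbp, Psmb8 and Psmb9 had this order too, while B2m, Tap1, Tap2 and Nlrc5 did not. So did the constitutive subunits Psmb6, Psmb7 and Psmb5, the last with 1056, 1275, 1637 and 1733 normalized reads in DSS a to d. The log2 fold change of Psmb10 was 0.47 in DSS (adjusted p = 0.891) and 0.28 in AOM+DSS (adjusted p = 0.879) in the authors' deposited table. By limma it was 0.28 in AOM+DSS (95% interval 0.05 to 0.51, adjusted p = 0.0885) with all libraries and 0.50 (adjusted p = 0.0221) with the GC and length trend removed. Without DSS a and b limma gave 0.89 in DSS (adjusted p = 0.00646), and without DSS c and d it gave -0.11 (adjusted p = 0.444). DSS a and b are the deeper libraries of the group, with 19773559 and 19130449 recovered reads against 11798027 and 11165985 in c and d. The 4 epithelial markers resolved in every library split the same way: they summed to 46999.5 and 46371 normalized reads in DSS a and b and to 72904 and 81674 in c and d. These 4 were Krt18, Krt20, Vil1 and Cdx2. Of the 11 listed, Krt20 and Cdx2 had the largest DSS folds (log2 0.71 and 0.92 in the authors' deposited table). The others, Krt8 among them, were not resolved in every library, so this sum does not stand for all epithelial RNA. Among the marker lists given below, myeloid sums ran the opposite way, at 9454, 10916, 3230 and 3311 normalized reads for DSS a to d. B and plasma cell sums did too, at 15010, 6830, 2785 and 3296. Endothelial and fibroblast sums were also higher in both deeper libraries. T and NK cell sums and smooth muscle sums did not divide this way. The part of depth, of epithelial RNA or of other cell types in this split was not tested.

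Of the 9 genes resolved in every DSS library, 8 had every DSS library above every control library, all but Psmb10, while 10.3% of 17935 genes did. All 10 genes had every AOM+DSS library above every control library, as did 20.8% of 18206 genes. Within groups the libraries kept an order across genes. Control b was the highest control for all 10 genes and control c the lowest for 9. DSS b was the lowest DSS library for 8 of 9 genes, and DSS d the highest for 6.

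**Figure D2:**
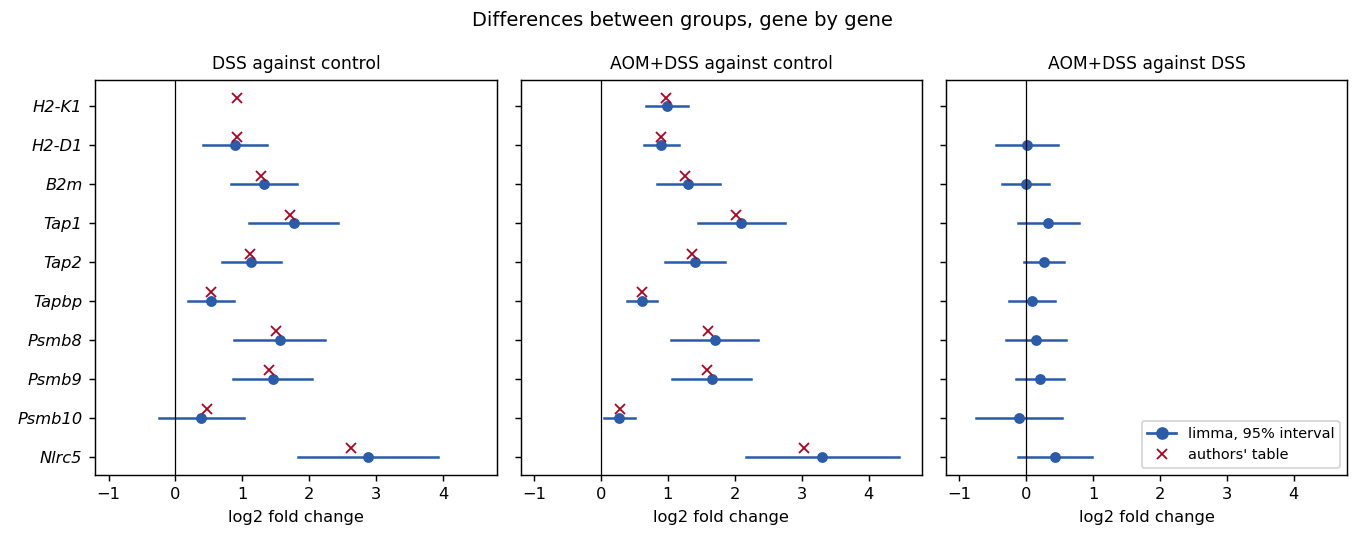
Log2 fold change of each gene in the 3 comparisons: blue points are limma's differences of mean log2 values with their 95% intervals, and red crosses are the log2 ratios of the authors' deposited tables, which exist only against control. H2-K1 has no limma value where DSS enters, as its reads there were not resolved. All intervals against control lie above 0 except that of Psmb10 in DSS, and all intervals between the treatments include 0.

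The number of genes that limma called in DSS changed with the libraries kept. By limma on the recovered reads, 7 of 9 genes rose in DSS, with 3.37% of 17935 genes called higher and 5.91% in either direction, and 9 of 10 in AOM+DSS, with 10.8% of 18206 genes called higher and 17.3% in either direction. Without control a or without control c, limma called 0 of 9 genes in DSS, with adjusted p of 0.200 and 0.179 for H2-D1 and between 0.0587 and 0.118 for the other 6 genes that it had called. Over all genes the calls in DSS then fell from 1060 to 177 and 182. Without DSS d it called 5 of 9, and 352 of 17856 genes higher. In AOM+DSS without control a it called 5 of 10, and 448 of 18138 genes higher. The log2 fold changes stayed positive in each of these fits; that of Nlrc5 in DSS was 2.70 without control a and 2.43 without control c.

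The treatments themselves were compared to ask whether the condition described as cancer differs from inflammation in these genes. Limma called 0 of 9 genes between AOM+DSS and DSS, and 0 at an unadjusted p under 0.05, where 1.73% of 18216 genes were called and 1.69% called higher in AOM+DSS. The median difference of the 9 genes was 0.14 on the log2 scale, against 0.02 over all genes tested. Nlrc5 was 0.43 higher in AOM+DSS, with a 95% interval from -0.12 to 0.98 (limma, adjusted p = 0.514). Tap1 was 0.33 higher (-0.12 to 0.79), Tap2 0.27 higher (-0.03 to 0.57) and Psmb9 0.20 higher (-0.16 to 0.56). B2m differed by -0.01, with an interval from -0.36 to 0.34, so a change within those bounds was not detectable with these libraries. Psmb10 differed by -0.11 (-0.75 to 0.53), the widest interval of the 9.

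Neither treated group lay wholly above the other for any of the 9 resolved genes. Over all genes, every AOM+DSS library lay above every DSS library in 7.98% and below in 3.64%. For H2-K1, each combination of DSS reads gave a difference of 0.07 (limma, adjusted p = 0.893 and 0.890). Leaving out DSS a and b made Psmb10 lower in AOM+DSS by 0.61 on the log2 scale (log2 -0.61, limma adjusted p = 0.0324), the 1 call that any of the fits between the treatments gave. That fit called 1 of 9 genes, and 2081 of 17947 over all genes, where 315 of 18216 were called with all libraries. In the resolved genes the AOM+DSS libraries were also closer to each other than the DSS libraries, and than the controls except for Psmb10. The coefficient of variation of B2m was 32.8% in control, 14.1% in DSS and 2.64% in AOM+DSS. For Nlrc5 it was 82.0%, 28.7% and 22.6%, and for Psmb10 5.13%, 39.8% and 7.61%. This spread was not tested or set against that of all genes.

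Levels of different genes were compared per length, as normalized reads per kb of transcript. In control, H2-K1 (8318) and B2m (7501) stood highest, followed by Psmb10 (2662), H2-D1 (2173), Tapbp (1563), Psmb8 (703), Psmb9 (457), Tap1 (396), Tap2 (346) and Nlrc5 (28.6). Psmb10 thus held the highest level of the immunoproteasome subunits in untreated crypts, while H2-K1 and B2m overlapped across libraries, as did Psmb8 with Psmb9, Psmb9 with Tap1 and Tap1 with Tap2. In DSS the order was B2m (18274), H2-K1 (15810), H2-D1 (4111), Psmb10 (3695), Tapbp (2270), Psmb8 (1984), Tap1 (1291), Psmb9 (1199), Tap2 (746) and Nlrc5 (176). Neighbours from H2-D1 down to Psmb9 overlapped across the DSS libraries, and Tap2 and Nlrc5 stood apart. AOM+DSS had the order of DSS, from 17990.5 for B2m and 16397 for H2-K1 to 893 for Tap2 and 234 for Nlrc5, and there only Tapbp with Psmb8 and Tap1 with Psmb9 overlapped. The per-kb level of H2-D1 relative to B2m in the same library fell within 0.238 to 0.342 in control, 0.180 to 0.259 in DSS and 0.208 to 0.241 in AOM+DSS, and the groups overlapped (exact permutation p = 0.171 and 0.200 against control). That of H2-K1 fell within 0.933 to 1.31 in control and 0.880 to 0.940 in AOM+DSS, which overlapped too (exact permutation p = 0.2).

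RNA of each induced subunit was set against that of the constitutive subunit it replaces, as a ratio per kb within a library. These are RNA ratios of a mixture of cells, so the exchange of subunits in proteasomes was not measured. Psmb8 over Psmb5 was 0.389, 0.803 and 0.293 in control libraries a to c, 1.77, 0.932, 1.19 and 1.23 in DSS libraries a to d and 1.39, 1.48 and 1.21 in AOM+DSS. Psmb9 over Psmb6 was 0.132, 0.262 and 0.0957 in control, 0.563, 0.359, 0.392 and 0.359 in DSS and 0.497, 0.512 and 0.488 in AOM+DSS. In both ratios all treated libraries were above all controls, and the means went from 0.495 to 1.28 and 1.36 for Psmb8 and from 0.163 to 0.418 and 0.499 for Psmb9. Two-sided exact permutation tests gave p = 0.0571 in DSS and p = 0.100 in AOM+DSS for each, which are the smallest values that these group sizes can give.

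Psmb10 over Psmb7 did not separate the groups. It was 1.39, 1.57 and 1.31 in control, 1.5, 1.39, 2.36 and 2.5 in DSS and 1.56, 1.38 and 1.97 in AOM+DSS (exact permutation p = 0.229 and 0.5 against control). Between the treatments none of the 3 ratios separated (exact permutation p = 0.8 for Psmb8, 0.229 for Psmb9 and 0.457 for Psmb10). In total 9 such tests of subunit ratios were made.

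**Figure D3:**
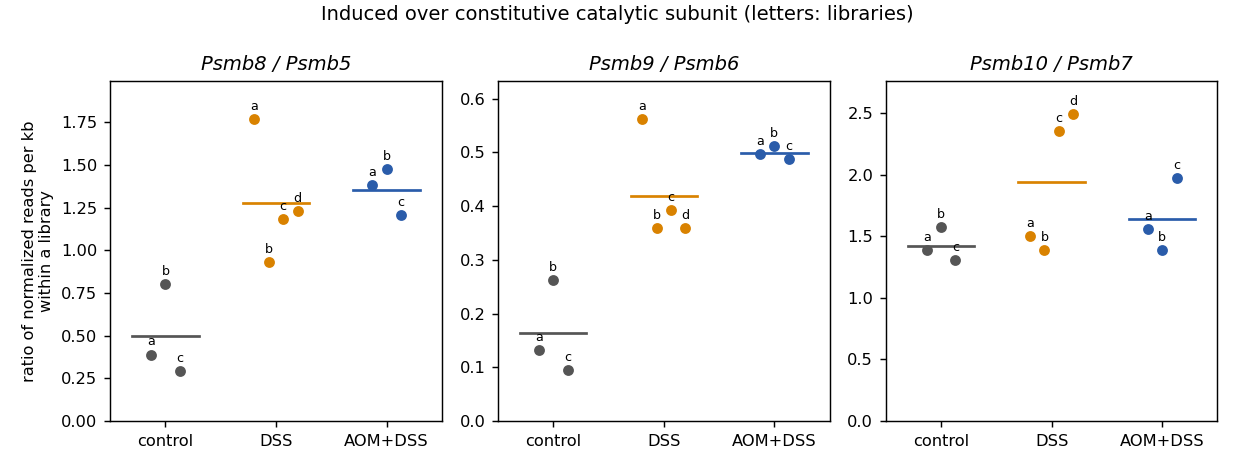
Ratio of normalized reads per kb of each induced subunit to its constitutive counterpart, one point per library (letters) with the group mean as a bar. Psmb8 over Psmb5 and Psmb9 over Psmb6 are higher in every treated library than in any control, and Psmb10 over Psmb7 is highest in DSS c and d and AOM+DSS c.

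None of the constitutive proteasome genes was called. None of Psmb5, Psmb6 and Psmb7 passed in either comparison and none had an unadjusted p under 0.05; log2 fold changes of Psmb6 were 0.02 in DSS and -0.09 in AOM+DSS and of Psmb7 -0.01 and 0.09 in the authors' deposited table. Of 17 other core subunits and assembly factors, 0 passed in DSS and 0 in AOM+DSS (1 and 0 at an unadjusted p under 0.05), with medians of 0.05 and 0.03 in the authors' deposited table. The authors' deposited table puts Psmb4 at 0.03 and -0.03 and Psmb1 at 0.01 and -0.13. Of 5 proteasome activators and inhibitors, which dock on the core, 0 passed in DSS and 0 in AOM+DSS, with 1 and 4 at an unadjusted p under 0.05. Psme1 and Psme2, the subunits of the interferon-inducible PA28 cap, had log2 fold changes in the authors' deposited table of 0.44 and 0.55 in DSS and 0.52 and 0.54 in AOM+DSS, with adjusted p from 0.119 to 0.436.

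The other class I heavy chains resembled H2-K1 and H2-D1 in part. Of 28 listed, 9 were listed at 0 in all groups, and of those tested 6 of 18 rose in DSS and 5 of 19 in AOM+DSS, with none lower. H2-Q4 held 685 to 1293 normalized reads in control, 1804 to 3444 in DSS and 2838 to 4185 in AOM+DSS, and the authors' deposited table gives log2 fold changes of 1.44 (adjusted p = 0.000189) and 1.92 (adjusted p = 3.42e-07). H2-Q10 rose by 1.6 (adjusted p = 0.000153) and 1.44 (adjusted p = 0.00107), and H2-T23, which encodes the ligand Qa-1 of NK cell receptors, by 0.65 (adjusted p = 0.0377) and 0.81 (adjusted p = 0.00509) in the authors' deposited table. H2-M2 rose in DSS by 2.76 (adjusted p = 0.00235) and stood at 1.30 in AOM+DSS (adjusted p = 0.276) in the authors' deposited table. Between the treatments H2-M2 differed by -1.6 (limma, adjusted p = 0.241). As these genes resemble each other and H2-Q6 and H2-Q7 were listed at 0, reads may have been assigned to a near copy.

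Genes that trim and load peptides were not called. Of 11, which include Erap1, the trimming peptidase of the endoplasmic reticulum, the chaperones Calr and Canx and the oxidoreductase Pdia3, 0 passed in DSS and 0 in AOM+DSS (2 and 3 at an unadjusted p under 0.05). Calr stood at log2 0.37 and 0.21 and Pdia3 at 0.17 and 0.25 in the authors' deposited table. The medians of the list were 0.14 and 0.21, against the 1.20 and 1.31 of the 10 genes.

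Of 17 factors known to act at class I and class II promoters, 4 rose in DSS and 4 in AOM+DSS, and 1 fell in AOM+DSS. Stat2, which carries the signal of type I interferons, rose by 0.88 (adjusted p = 0.00354) and 0.83 (adjusted p = 0.00324) in the authors' deposited table. Ciita, the class II counterpart of Nlrc5, rose by 2.43 (adjusted p = 0.00193) and 2.76 (adjusted p = 0.000368) in the authors' deposited table, from 20.1 to 349 normalized reads in control to 527 to 1247 in DSS and 563 to 1175 in AOM+DSS. It was highest in control b and DSS a, which held the most B and plasma cell markers of their groups. In AOM+DSS it was highest in library b, which held the fewest. The part of B cells in the Ciita values was not tested.

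Irf9, a DNA-binding partner of Stat2, also rose in both comparisons (log2 0.83 and 0.74, adjusted p = 0.00764 and 0.0157 in the authors' deposited table). Rfxank, a subunit of the X box factor RFX through which Nlrc5 acts, was the gene that fell in AOM+DSS, with a log2 fold change in the authors' deposited table of -0.86 (adjusted p = 0.00957). It held 543 to 681 normalized reads in control, 441 to 663 in DSS and 264 to 426 in AOM+DSS. The AOM+DSS range lay below both of the others, but the difference between the treatments did not pass (limma log2 -0.72, adjusted p = 0.179). Irf1, which binds ISREs, stood at 0.61 in DSS (adjusted p = 0.307) and 0.70 in AOM+DSS (adjusted p = 0.0559) in the authors' deposited table. Irf9, Rfxank and Irf1 were chosen after their values were seen.

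Interferon ligands were near the floor. Ifng, the cytokine that induces the immunoproteasome, averaged 3.95 normalized reads in control, 6.39 in DSS and 19.0 in AOM+DSS and did not pass in either comparison (adjusted p = 0.986 and 0.331 in the authors' deposited table), and Ifnb1 was listed at 0 in all groups. Ifng and Ifnb1 were likewise chosen after their values were seen. Of 13 tested interferon ligands, receptors and signalling genes, 2 rose in each comparison. They were the feedback inhibitors Socs1 and Socs3. The authors' deposited table gives log2 fold changes of 1.70 (adjusted p = 0.00179) and 1.85 (adjusted p = 8.11e-05) for Socs1 and of 1.07 (adjusted p = 0.0395) and 1.52 (adjusted p = 0.000652) for Socs3. Of the ligands that T and NK cell receptors read on the same cells, 1 of 7 rose in DSS and 1 of 8 in AOM+DSS. It was Cd274, which encodes the inhibitory ligand PD-L1, with 129 to 206 normalized reads in control, 356 to 571 in DSS and 663 to 1064 in AOM+DSS. Cd274 rose by 1.41 (adjusted p = 0.00233) and 2.29 (adjusted p = 9.41e-08) in the authors' deposited table, and the difference of 0.86 between the treatments did not pass (limma, adjusted p = 0.118), although the ranges did not overlap.

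**Figure D4:**
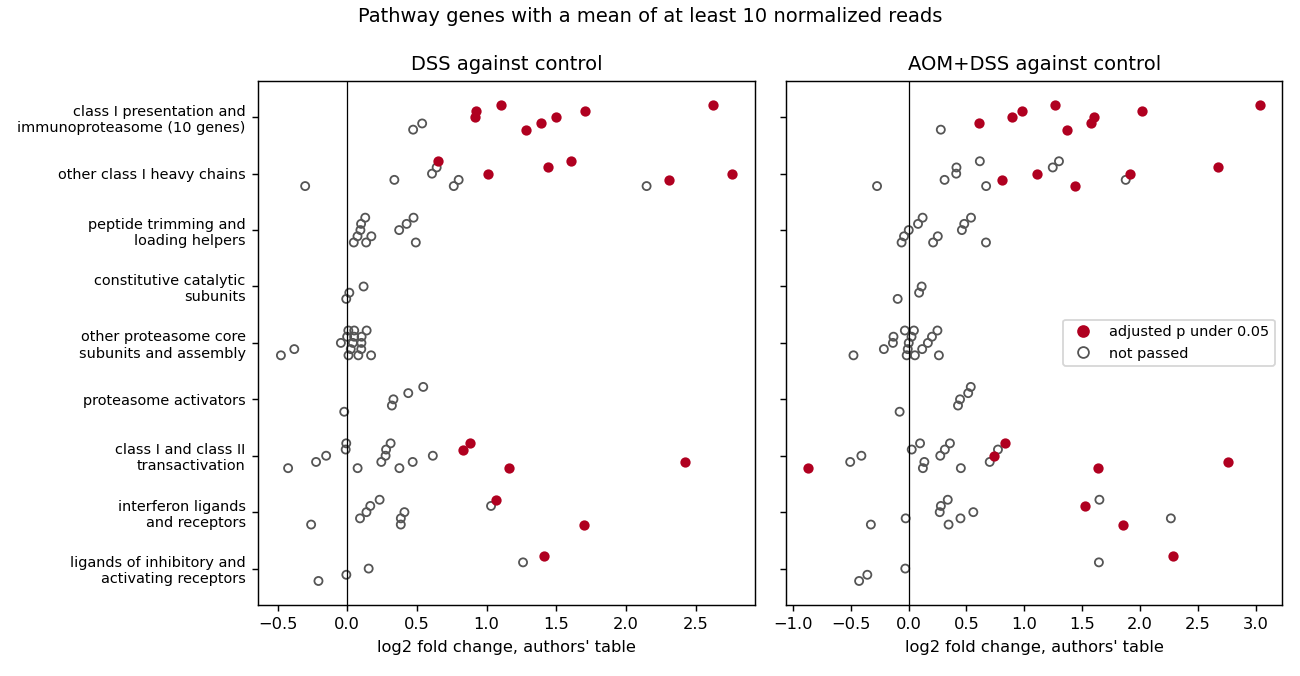
Log2 fold change of each pathway gene with a mean of at least 10 normalized reads over both groups, from the authors' deposited tables, by list (rows). Red points passed an adjusted p of 0.05 and open points did not; all of the 10 genes lie to the right of 0, most other heavy chains do too with Cd1d1 to the left in both panels, and the constitutive catalytic subunits lie around 0.

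The 6 genes whose pattern was most like that of the members are given as a description. Likeness was Pearson's r across the 10 libraries between a gene's log2 reads and the mean z-score of the 9 resolved members, over 11729 genes, with the groups and libraries shared by all points. The highest were St3gal1 (r = 0.992), a sialyltransferase, Oasl2 (0.979) and Oasl1 (0.977), interferon-induced relatives of the oligoadenylate synthetases, Pdk4 (0.979), a kinase that restrains pyruvate dehydrogenase, Ncoa7 (0.976) and Clec2e (0.976). St3gal1 stood at 40.6, 128 and 33.9 normalized reads in control, 579, 224, 835 and 1295 in DSS and 565, 569 and 542 in AOM+DSS. Like the members, it was highest in control b among the controls and lowest in DSS b among the DSS libraries.

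Markers of other cell types moved with the groups and with single libraries. The 15 T and NK cell markers summed to 349, 1007 and 232 normalized reads in control a to c, 5294, 953, 768 and 983 in DSS a to d and 799, 955 and 1310.2 in AOM+DSS. The 10 B and plasma cell markers summed to 166 to 3279 in control, 2785 to 15010 in DSS and 1493 to 5536 in AOM+DSS, and the 14 myeloid markers to 1571 to 3484, 3230.1 to 10916 and 8016 to 20172. Control b was the highest control in all 3 sums, as it was for all 10 genes. It was also the highest control in the endothelial, fibroblast and smooth muscle sums. The same held for the 4 resolved epithelial markers, with 45092, 50883 and 40031 normalized reads in control a to c. DSS a held the most lymphocyte reads of its group and DSS b the most myeloid reads. Of the 9 resolved genes, DSS b was the lowest DSS library for 8, DSS d the highest for 6 and DSS a the highest for 3.

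Most of the marker calls were myeloid. In DSS 1 of 15 T and NK, 1 of 10 B and plasma and 4 of 14 myeloid markers rose, and in AOM+DSS 2, 0 and 10 did, in the authors' deposited table. No endothelial or smooth muscle marker passed in either comparison, and the authors' deposited table calls 1 of 11 fibroblast markers lower in DSS, and 2 higher and 1 lower in AOM+DSS. Between the treatments limma called 3 B and plasma markers lower in AOM+DSS. The 10 endothelial markers summed to 490.5 to 906 normalized reads in control, 319.5 to 717 in DSS and 323 to 918 in AOM+DSS, the 11 fibroblast markers to 572 to 2492, 751 to 2236 and 3868 to 5455, and the 8 smooth muscle markers to 1388 to 3015, 1809 to 2278 and 1624 to 14428. These sums hide fibroblast and smooth muscle markers that moved apart in DSS, where their median log2 fold changes were -1.67 and -2.04 in the authors' deposited table. Thy1, Vim and Fbln1 stood higher in DSS than in control, and the other fibroblast markers lower. Mylk and Smtn stood higher too, and the other smooth muscle markers lower. With DSS means of 1240 and 577, Mylk and Smtn made up most of the smooth muscle sum there. No marker of these 6 lists was at 0 in every library of a group. Class I is carried by immune cells too, and the part of these cells in the members' differences was not tested.

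Without control b, Tap1 differed by 2.11 in DSS and 2.45 in AOM+DSS (limma, adjusted p = 0.00376 and 0.000617), against 1.77 and 2.10 with all libraries, and Nlrc5 by 3.51 and 3.94. Limma then called 6 of 9 genes higher in DSS, where it called 837 of 17734 genes higher, and 9 of 10 in AOM+DSS, where it called 2745 of 18068 higher. Without control b and DSS a together it called 6 of 9 in DSS, and 891 of 17461 genes higher. Without control b and AOM+DSS c together it called 9 of 10 in AOM+DSS, and 3903 of 17837 genes higher. H2-D1 was the gene lost in DSS in both fits, with a log2 difference of 0.98 and 1.04 (adjusted p = 0.0542 and 0.0560) against 0.89 with all libraries.

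**Figure D5:**
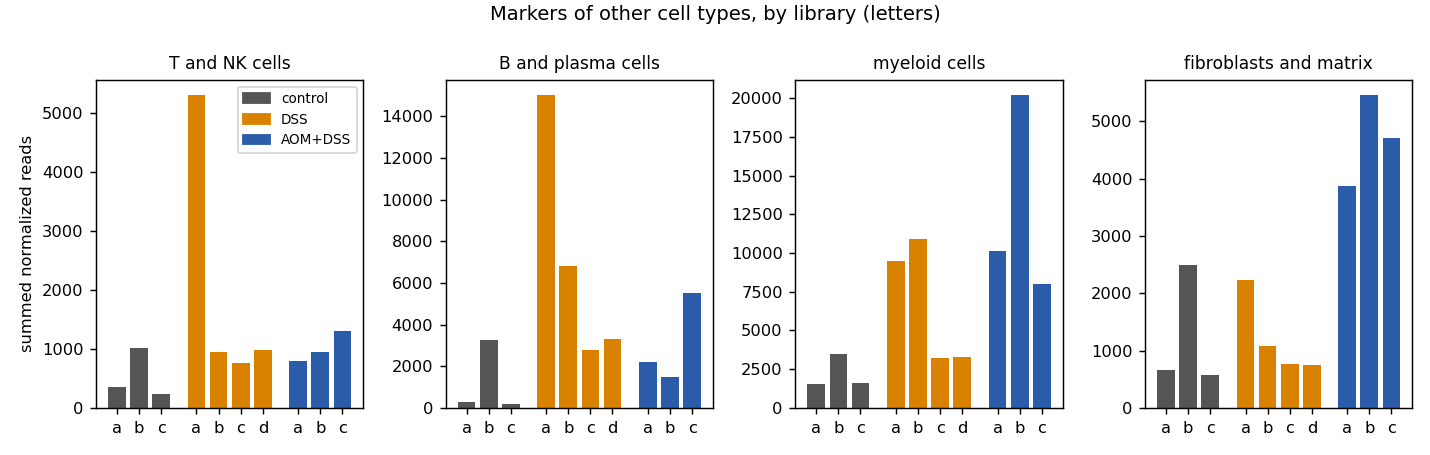
Summed normalized reads of marker genes of 4 other cell types in each library (bars from 0; letters are libraries, grey control, orange DSS, blue AOM+DSS). Control b is the highest control in each panel, DSS a the highest DSS library for T and NK, B and plasma and fibroblast markers, and the AOM+DSS libraries are the highest in fibroblast markers.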

How the data were processed

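Poly(A) RNA of crypts from the distal colon was sequenced in 10 libraries, and the submitters mapped reads to mm9 with TopHat2 2.0 and compared groups with DESeq, per the submitters' processing notes. The read counter, the annotation and the strand setting count as not given in the sources used here, and the TruSeq kit named in the labels' protocols does not mark strand. The 2 deposited tables hold 23364 genes each. Their values are group means of normalized counts (a signal scaled by library size factors), ratios of these means (fold changes), log2 ratios and p-values with adjusted p-values, per the file headers. The AOM+DSS header names more replicates than the labels' 3, and the printed means fit 3. The files hold no counts per sample, so the count-based test planned at first, with its TMM scaling, was not run.

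Whole reads per library were recovered instead. A deposited mean adds up whole reads times a fixed step per library, so the printed digits give the reads back. For high DSS genes the authors' p-values, recomputed for each candidate with the authors' test, settled which combination was used. This gave 99.5% of genes in control, 99.3% in DSS and 99.9% in AOM+DSS, which hold 84.3%, 84.0% and 94.9% of the mean total. On simulated data of 499 genes 98.2%, 97.4% and 99.8% were recovered, with 0 wrong. Reads cover counting error only, since there are no molecular identifiers. Normalized reads are recovered reads divided by the size factor.

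Limma 3.58.1 (R 4.3.3, trended variance) tested log2(normalized reads + 1) over all genes of the 2 groups compared, with Benjamini-Hochberg adjustment at 0.05. Its log2 differences understate the change of low genes. On simulated data it found 80%, 66% and 68% of 2-fold changes in DSS, AOM+DSS and the comparison between treatments, over 17236, 17548 and 17518 genes, and 99%, 100% and 99% of 4-fold changes. The simulated reads varied less at low means than the authors' test assumed, and no differences were shared by many genes of a library. These shares may therefore be too high for the real libraries. Ratios within a library were compared with exact two-sided permutation tests (scipy 1.17.1). Lengths come from GENCODE transcripts, found for 98.5% of genes. Promoter windows are RefSeq's (GRCm38.p6), a build other than that of the files, so no position was carried over.

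The 10 genes and all lists were chosen with earlier results of these data known. All 10 are named. From each other list and comparison, up to 3 called genes with the smallest adjusted p are named, or the 2 with the highest mean where none was called, and the 6 genes with the highest likeness; 1 gene that this rule picks is not reported here. Alternatives were another pseudocount, a filter on low means, other size factors, removal of GC and length trends, a threshold of 0.01 and libraries left out. Those that left out 2 libraries together, and those with the 2 combinations of H2-K1 reads, were chosen after seeing the data.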

Additional observations from a re-analysis of the deposited data

Results flagged for a closer look

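The lowest DSS library of B2m, DSS b, stood apart from the other DSS libraries. It held 12412.6 normalized reads, against 16931, 16528 and 16992 in DSS a, c and d, and its gap to the nearest of these was large relative to the range of the group. The groups of 4 DSS libraries were examined this way for 9 of the 10 genes, and chance marks about 1 in 20 such groups. Groups of 3 were not examined. DSS b was also the lowest DSS library of 8 of these 9 genes.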

How the results depend on the processing

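No paired analysis was possible because the recovered libraries carry no replicate number. Values of the genes under all alternatives were set beside the main ones. Of these, 121 of 147 in DSS, 123 of 130 in AOM+DSS and 118 of 138 between the treatments stayed the same. For fits with a test this meant the same direction and the same side of the threshold. For means with 10 added and, between the treatments, ratios of group means, it meant the direction alone. In the first 2 sets 22 and 6 values lost significance, and 3, 1 and 1 gained it in the 3 comparisons. Leaving out 1 library at a time, limma called 0 to 7 of 9 genes higher in DSS (0 without control a, 0 without control c and 5 without DSS d), 5 to 9 of 10 in AOM+DSS (5 without control a) and 0 of 9 between the treatments. Without DSS a and b it called 1 of 9 between the treatments, and 2081 of 17947 over all genes. Each such fit has fewer samples; beyond that the cause was not tested. Psmb10 in DSS against control turned to -0.11 without DSS c and d. Between the treatments, where nothing was called with all libraries, signs changed on the log2 scale. Those of H2-D1 were -0.022 as the ratio of group means and -0.022 with 10 added, -0.14 to 0.12 with 1 library left out and -0.31 without DSS a and b. B2m ranged from -0.12 to 0.030 with 1 left out and was 0.094 without DSS c and d. Tapbp ranged from -0.0069 to 0.17 and was -0.11 without DSS a and b, and Psmb8 ranged from -0.043 to 0.24 and was -0.084 there. Psmb10 was 0.017 with the GC and length trend removed, ranged from -0.29 to 0.10 with 1 left out, and was 0.39 without DSS c and d. Every one of the 10 genes had reads in every resolved library. TMM scaling and a count test were not run, as the files hold no counts per sample.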
